A study of Homo sapiens with 6 samples.

Results

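The genes of fatty acid synthesis, desaturation, elongation, activation and oxidation, with the PPAR receptors that sense fatty acids, were followed in SW620 cells that overexpressed ELAPOR1. The members were 43 named genes, each found by its symbol in exactly 1 row among the 60605 genes of the deposited count table. SW620 is an established human colorectal cancer line from a lymph node metastasis. The 3 ELAPOR1 libraries came from cells infected with lentivirus made from pLVX-IRES-Puro-ELAPOR1, and the 3 vector libraries from cells infected with empty pLVX-IRES-Puro virus. Both infections used a multiplicity of 20, and both groups were kept in medium with 10% serum and then under puromycin at 2 ug/ml. The labels name no clone and do not say whether libraries 1 to 3 of a group came from separate infections or cultures, so a p-value here stands for library-to-library spread alone, possibly of technical origin.

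Cells build palmitate from citrate in the cytosol: ATP citrate lyase (ACLY) makes acetyl-CoA, acetyl-CoA carboxylase (ACACA, ACACB) makes malonyl-CoA and fatty acid synthase (FASN) joins the units. Desaturases and elongases then shape the chains, and acyl-CoA synthetases (ACSL) activate fatty acids so that they enter lipids or are broken down. For oxidation in mitochondria, CPT1A couples the chain to carnitine and a cycle of dehydrogenases, hydratases and thiolases shortens it, while peroxisomes handle very long and branched chains. Many colorectal tumours make much of their own fatty acid.

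ELAPOR1 itself averaged 21126 ± 362 CPM in ELAPOR1 cells and 10.4 ± 1.47 CPM in vector cells (SD, n = 3 each), so the libraries matched their labels; CPM values are counts scaled to TMM-adjusted library size. Total counts lay between 16401813 and 20571924 per library. Of 10 colorectal epithelial markers, 9 averaged 1 CPM or more and CDX1 was near 0. Their summed level was 7884 to 7898 CPM in ELAPOR1 libraries and 8482 to 8871 CPM in vector libraries. Of the 9 tested, 5 (CDH1, KRT8, KRT19, KRT20, CDX2) fell at the threshold given below, 55.6% of them against 11.4% of all tested genes. Summed adipocyte markers stayed under 1 CPM in every library. Summed hepatocyte markers were 49.0 to 51.8 CPM in ELAPOR1 libraries and 13.6 to 15.8 CPM in vector libraries, nearly all of it SERPINA1, with ALB near 0. Summed fibroblast markers were 24.9 to 30.1 CPM in ELAPOR1 libraries and 17.4 to 18.8 CPM in vector libraries, led by LUM, with COL1A2, COL3A1 and DCN near 0. The part of these marker shifts in the results below was not tested, and in bulk RNA fewer cells of a type and less RNA per cell cannot be told apart.

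Of the 43 members, 38 had enough counts to be tested, each with at least 101 counts in every library. In ELAPOR1 cells 10 of them rose and 4 fell by edgeR's quasi-likelihood test at a Benjamini-Hochberg adjusted p under 0.05 over all 16003 tested genes. That is 36.8% of the tested members, where 21.4% of all tested genes were called, and 27.0% of those averaging 5 CPM or more, a background added after the data were seen, since all 38 reached that level. The higher members were 26.3% of those tested, against 10.0% of all tested genes and 11.9% of those with at least 5 CPM. For lower members the share was 10.5%, against 11.4% and 15.1%. The members' median log2 fold change was 0.06, beside 0.00 for all tested genes. The groups did not overlap in CPM for 19 of the 38 members, 50% of them, against 33.8% of all tested genes and 39.6% of those with at least 5 CPM. Members were chosen with earlier results of these data known, so these shares describe the list and are no test of it. Changes were small except in a few genes: fatty acid activation showed the largest rise, ACSL1, and the largest fall, ACSL5. With library sizes alone as scaling the split was 6 higher and 4 lower. Without ELAPOR1 replicate 1 it was 6 and 4, without ELAPOR1 replicate 3 it was 5 and 4, and without vector replicate 2 it was 6 and 2.

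**Figure D1:**
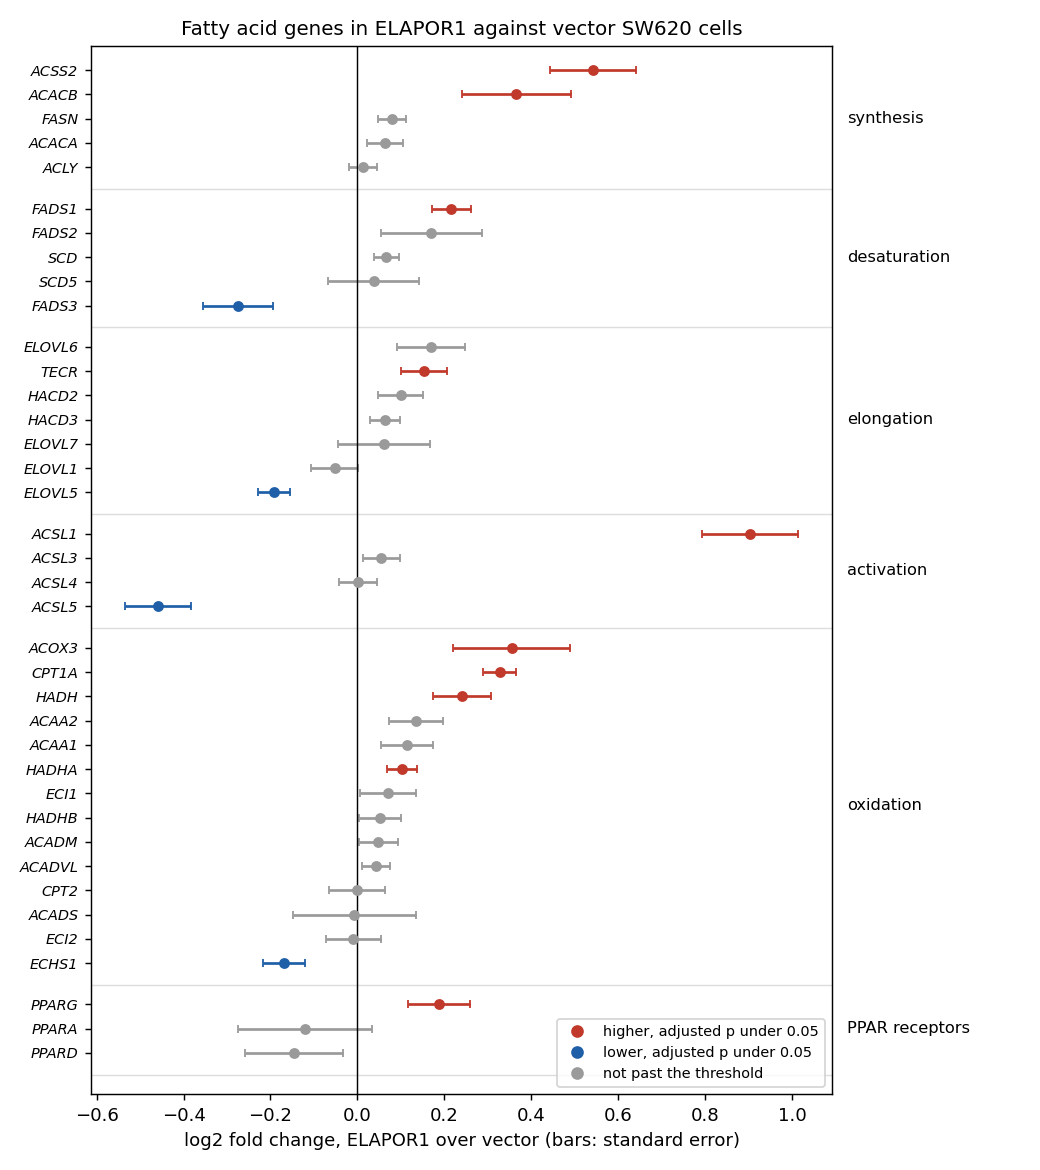
Log2 fold change (x axis, ELAPOR1 over vector) of the 38 tested members by role, with standard errors as bars; red marks the 10 higher, blue the 4 lower and grey the 24 that missed the threshold. ACSL1 at 0.90 and ACSL5 at -0.46 lie at the ends, while ACLY, FASN and SCD sit within 0.08 of 0.

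ACSS2, FADS1, ELOVL5, ACSL1, ACSL5 and CPT1A were the 6 of the 14 called members that stayed past the threshold under every alternative run. For the 3 of them with a single listed start in RefSeq (GRCh38.p14), the window from 250 bases before to 50 after that start is shown, so that the letters around the start of a called gene can be read beside its values. FADS1 (chr11:61816954-61817253), ELOVL5 (chr6:53348901-53349200) and CPT1A (chr11:68844228-68844527) all lie on the minus strand. Capitals mark matches on either strand to CACGTG (an E-box) or to a DR1 element of the kind PPAR receptors bind.
FADS1: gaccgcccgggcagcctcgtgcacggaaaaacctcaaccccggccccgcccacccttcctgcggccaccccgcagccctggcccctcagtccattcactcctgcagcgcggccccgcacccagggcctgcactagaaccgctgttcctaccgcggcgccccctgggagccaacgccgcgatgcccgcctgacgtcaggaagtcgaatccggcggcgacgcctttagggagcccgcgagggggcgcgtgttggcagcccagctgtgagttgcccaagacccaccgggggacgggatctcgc
ELOVL5: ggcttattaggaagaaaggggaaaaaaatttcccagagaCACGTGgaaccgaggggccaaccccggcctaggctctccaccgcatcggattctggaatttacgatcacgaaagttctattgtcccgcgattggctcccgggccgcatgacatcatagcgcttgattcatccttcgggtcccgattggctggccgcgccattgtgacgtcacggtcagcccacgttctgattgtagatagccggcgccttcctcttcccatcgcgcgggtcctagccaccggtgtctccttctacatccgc
CPT1A: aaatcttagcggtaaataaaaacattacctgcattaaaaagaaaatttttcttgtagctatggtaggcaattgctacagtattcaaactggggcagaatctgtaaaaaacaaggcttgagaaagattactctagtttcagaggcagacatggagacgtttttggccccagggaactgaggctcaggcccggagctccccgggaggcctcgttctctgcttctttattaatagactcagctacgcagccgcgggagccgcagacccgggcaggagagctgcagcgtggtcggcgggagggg
ELOVL5 holds CACGTG 211 bases before its start. FADS1 and CPT1A hold neither motif in these windows. The FADS1 window is 72% G and C with 32 CpG pairs and that of CPT1A 50% with 13, where the median of all 35116 RefSeq windows is 58.7% with 14.

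Over 73 windows of the 41 members with an entry, 0 held the DR1 element, which 0.0228% of all windows hold. E-box letters were in 2.74% of member windows, those of ELOVL5 and ELOVL4, against 7.26% of all windows. The GC box GGGCGG, added after the data were seen, was in 67.1% of member windows and 45.0% of all windows. Member windows also had a higher median G and C content, 66.7% with 27 CpG pairs, and the part of composition in the GC box share was not tested. A match describes letters only and shows no binding.

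Of the 5 synthesis genes 2 rose, ACSS2 and ACACB, and none fell. ACLY, ACACA and FASN missed the threshold, and the median log2 fold change of the 5 was 0.08. ACLY (chromosome 17, 41866917 to 41930542, GRCh38 as all gene positions here) had 316, 313 and 305 CPM in ELAPOR1 libraries, against 307, 305 and 313 CPM in vector libraries. The groups overlap, and the approximate 95% interval of the log2 fold change ran from -0.05 to 0.08 (adjusted p = 0.838 by edgeR). ACACA, the carboxylase of the cytosol, had 153, 150.2 and 141 CPM in ELAPOR1 libraries and 149, 138 and 138 CPM in vector libraries, an overlap with an interval from -0.02 to 0.14.

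FASN (chromosome 17, 82078338 to 82098294) had 313, 326 and 312 CPM in ELAPOR1 libraries, against 302, 304 and 294 CPM in vector libraries. Every ELAPOR1 library lay above every vector library, but by a small step: the log2 fold change was 0.08 with an interval from 0.02 to 0.14, and the adjusted p was 0.0716. ACSS2 (ENSG00000131069, chromosome 20, 34872146 to 34927962), which makes acetyl-CoA from acetate, had 22.4, 21.4 and 23.2 CPM in ELAPOR1 libraries, against 16.8, 13.2 and 16.1 CPM in vector libraries. It rose 1.46-fold without overlap of the groups, a log2 fold change of 0.54 ± 0.0991 (SE, n = 3 each; adjusted p = 1.36e-05 by edgeR). ACSS2 overlaps GGT7 on the other strand, which rose by 0.35, though GENCODE 29 lists no shared exonic base; whether counting used strand is not stated in the labels or headers. ACACB, the carboxylase at the mitochondrial surface whose malonyl-CoA restrains CPT1, averaged 12.2 ± 1.69 CPM in ELAPOR1 cells and 9.51 ± 0.354 CPM in vector cells. It rose by 0.37 on the log2 scale (adjusted p = 0.0273), but the adjusted p was 0.256 without ELAPOR1 replicate 2, 0.0912 without vector replicate 2 and 0.0612 without vector replicate 3.

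**Figure D2:**
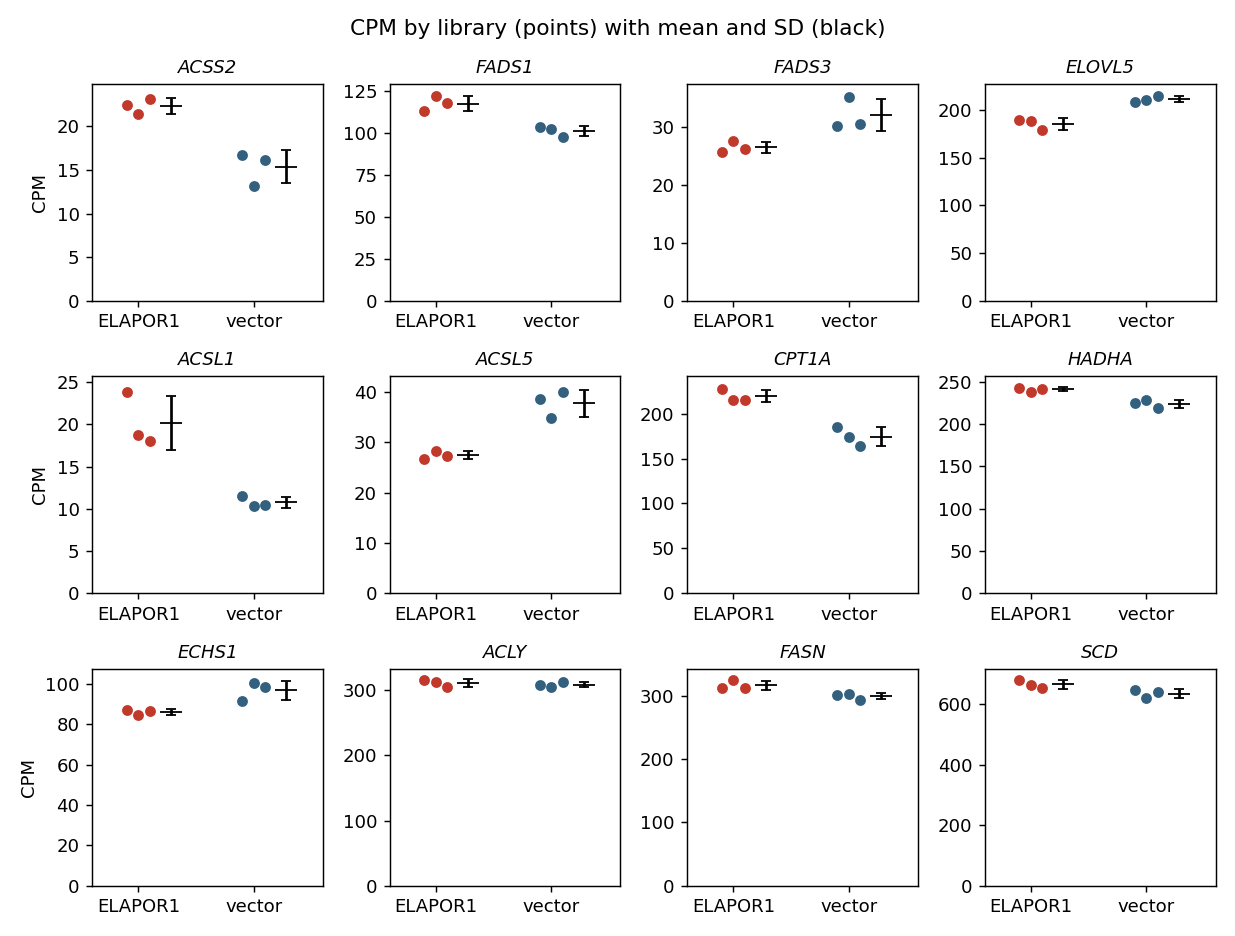
CPM (y axis, from 0) of 12 members in each library, ELAPOR1 left and vector right, with mean and SD in black. ACSL1, ACSS2, CPT1A and FADS1 are higher and ACSL5, ELOVL5, FADS3 and ECHS1 lower in every ELAPOR1 library than in any vector library, while ACLY overlaps.

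Among desaturases, FADS1 rose and FADS3 fell. SCD, which puts the first double bond into saturated chains, stood highest of all 43 members per length, at 126 ± 2.46 FPKM in ELAPOR1 cells and 122 ± 2.96 FPKM in vector cells (FPKM is the authors' count per kilobase of exon, scaled to library size). In CPM it had 681, 664 and 653 in ELAPOR1 libraries, against 647, 620.0 and 642 in vector libraries. The groups did not overlap, yet the log2 fold change was 0.07 and the adjusted p 0.0901. Its paralog SCD5 averaged 17.5 ± 0.175 CPM in ELAPOR1 cells and 17.1 ± 2.80 CPM in vector cells, with an adjusted p of 0.858.

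The FADS genes lie side by side on chromosome 11. FADS1 (ENSG00000149485, 61799627 to 61829318), a desaturase of polyunsaturated chains that makes arachidonate, had 113, 122 and 118 CPM in ELAPOR1 libraries, against 104, 103 and 97.8 CPM in vector libraries. It rose by 0.22 ± 0.0446 on the log2 scale with no overlap and an adjusted p of 0.000114. FADS2, which acts before FADS1 in that route, averaged 14.0 ± 1.41 CPM in ELAPOR1 cells and 12.4 ± 1.51 CPM in vector cells, and its groups overlapped (adjusted p = 0.333). FADS3, a desaturase of sphingoid bases, had 25.6, 27.5 and 26.2 CPM in ELAPOR1 libraries, against 30.2, 35.2 and 30.5 CPM in vector libraries. It fell by 0.28 on the log2 scale with an adjusted p of 0.00814, a call lost without vector replicate 2, the highest vector library, at an adjusted p of 0.129. Of the FPKM of the 3 genes together, FADS1 took 67.6% ± 0.274 in ELAPOR1 cells and 61.3% ± 2.16 in vector cells, and FADS3 took 24.7% ± 0.371 in ELAPOR1 cells and 31.4% ± 1.52 in vector cells. FADS1 and FADS2 share 490 exonic bases on opposite strands in GENCODE 29, with 12043 counts for FADS1 and 1454 for FADS2. The part of reads on shared bases in either count was not tested. FADS2 also shares 49 exonic bases with FEN1 on the same strand, which had 20814 counts and a log2 fold change of -0.06 (adjusted p = 0.248).

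Of 9 elongation genes 7 were tested, and of these TECR rose and ELOVL5 fell. ELOVL5 (ENSG00000012660, chromosome 6, 53267398 to 53349179), which lengthens polyunsaturated chains, had 189, 188 and 178 CPM in ELAPOR1 libraries, against 209, 211 and 215 CPM in vector libraries. Every ELAPOR1 library lay below every vector library, and the gene fell by 0.19 ± 0.0365 on the log2 scale with an adjusted p of 3.02e-05. It was also the most abundant elongase per length, at 48.1 ± 1.51 FPKM in ELAPOR1 cells and 55.8 ± 0.765 FPKM in vector cells. ELOVL1, which extends saturated very long chains, followed with 26.0 ± 0.971 FPKM in ELAPOR1 cells and 27.4 ± 0.715 FPKM in vector cells, and did not pass (adjusted p = 0.567). ELOVL6, which turns palmitate into stearate, averaged 32.3 ± 1.40 CPM in ELAPOR1 cells and 28.8 ± 0.936 CPM in vector cells, without overlap but with an adjusted p of 0.118. ELOVL7, an elongase of saturated chains, and the dehydratases HACD2 and HACD3 differed by 0.06, 0.10 and 0.06 on the log2 scale, with adjusted p from 0.168 to 0.762. TECR, the reductase of the last elongation step, averaged 72.1 ± 3.15 CPM in ELAPOR1 cells and 64.8 ± 2.10 CPM in vector cells. It rose by 0.15 with an adjusted p of 0.0303, but 9 of 16 alternatives lost the call, among them those without ELAPOR1 replicate 1 (adjusted p = 0.0714), ELAPOR1 replicate 3 (0.201), vector replicate 1 (0.0582) or vector replicate 2 (0.141). TECR shares 211 exonic bases with DNAJB1 on the other strand, which fell by 0.18 and had 17922 counts against 7501 for TECR.

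Of the 4 activation genes tested, ACSL1 rose and ACSL5 fell. ACSL1 (ENSG00000151726, chromosome 4, 184755595 to 184826818), the main long-chain acyl-CoA synthetase of liver, fat and muscle, had 23.8, 18.7 and 18.0 CPM in ELAPOR1 libraries, against 11.5, 10.3 and 10.4 CPM in vector libraries. The lowest ELAPOR1 library stood well above the highest vector library, and ELAPOR1 replicate 1 was the highest of all. ACSL1 rose 1.87-fold, 0.90 ± 0.111 on the log2 scale (adjusted p = 6.34e-10), and leaving out any library gave 0.77 to 0.98. ACSL5 (ENSG00000197142, chromosome 10, 112374116 to 112428379), the synthetase most typical of the intestinal epithelium, had 26.7, 28.3 and 27.3 CPM in ELAPOR1 libraries, against 38.6, 34.8 and 39.9 CPM in vector libraries. It fell by 0.46 ± 0.0766 on the log2 scale, a drop of 27.2%, with no overlap and an adjusted p of 2.08e-06. ACSL5 shares 144 exonic bases with ZDHHC6 on the other strand, which had 8598 counts against 3592 for ACSL5 and a log2 fold change of -0.10 (adjusted p = 0.162).

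ACSL3, found on lipid droplets, and ACSL4, which prefers arachidonate, did not pass. Both had more CPM than ACSL1 and ACSL5, but per length ACSL3 stood below ACSL5 in vector cells (8.13 against 9.18 FPKM). ACSL3 averaged 121 ± 1.07 CPM in ELAPOR1 cells and 117 ± 4.66 CPM in vector cells (adjusted p = 0.415), and ACSL4 115 ± 2.73 and 115 ± 6.13 CPM, with an interval of the log2 fold change from -0.09 to 0.09. The make-up of the family differed between the groups. FPKM is scaled to raw library totals, of which ELAPOR1 itself took 2.06% to 2.12% in ELAPOR1 libraries. This lowers the FPKM of other genes there, though not their shares within a library. With that limit, the 5 ACSL genes together gave 29.6 ± 0.348 FPKM in ELAPOR1 cells and 30.7 ± 1.15 FPKM in vector cells. ACSL1 took 12.9%, 10.2% and 9.98% of it in ELAPOR1 libraries, against 6.02%, 5.76% and 5.47% in vector libraries. ACSL5 took 21.5%, 22.8% and 22.4% in ELAPOR1 libraries, against 29.9%, 28.8% and 31.0% in vector libraries. In neither gene did the shares of the groups overlap. The ratio of ACSL1 to ACSL5 FPKM was 0.498 ± 0.0897 in ELAPOR1 cells and 0.193 ± 0.0141 in vector cells.

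**Figure D3:**
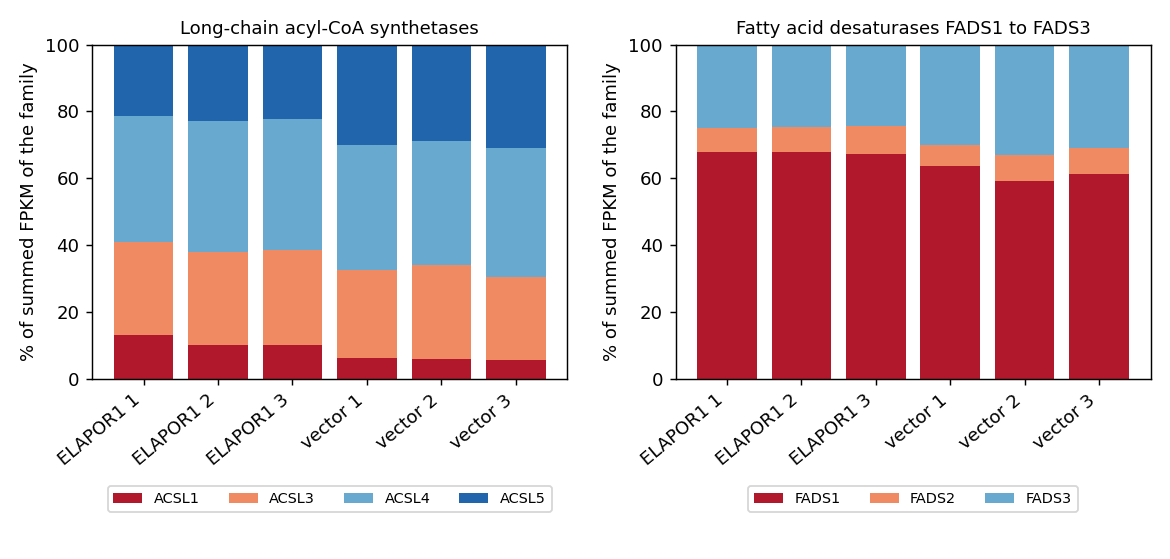
Share of each gene (y axis, percent) in the summed FPKM of the ACSL genes, left, and of FADS1 to FADS3, right, for each library. The ACSL1 band is wider and the ACSL5 band narrower in all 3 ELAPOR1 libraries, and FADS3 takes 24.7% in ELAPOR1 cells against 31.4% in vector cells.

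Of 16 oxidation genes 14 were tested, 4 rose (CPT1A, HADH, HADHA and ACOX3) and 1, ECHS1, fell, with a median log2 fold change of 0.06. CPT1A (ENSG00000110090, chromosome 11, 68754620 to 68844410), the rate-limiting carnitine palmitoyltransferase of the outer mitochondrial membrane, had 227, 215 and 216 CPM in ELAPOR1 libraries, against 186, 174 and 164 CPM in vector libraries. All ELAPOR1 libraries lay above all vector libraries, and CPT1A rose by 25.5%, which is 0.33 ± 0.0384 on the log2 scale (adjusted p = 1.34e-10). CPT2, its partner on the inner membrane, averaged 45.4 ± 1.64 CPM in ELAPOR1 cells and 45.5 ± 1.56 CPM in vector cells, with an interval of the log2 fold change from -0.13 to 0.12.

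The acyl-CoA dehydrogenases that open the mitochondrial cycle did not pass: ACADVL for very long chains, ACADM for medium and ACADS for short chains differed by 0.04, 0.05 and -0.01 on the log2 scale, with adjusted p from 0.398 to 0.985. HADHA is the alpha subunit of the trifunctional protein and HADHB its beta subunit. HADHA had 243, 238 and 241 CPM in ELAPOR1 libraries, against 225, 228 and 219 CPM in vector libraries. It rose by 0.10 (adjusted p = 0.0238 by edgeR), and HADHB, at 0.05, did not pass (adjusted p = 0.503). Their intervals, 0.03 to 0.17 and -0.04 to 0.15, overlap, and a difference between the subunits was not tested. HADH, a hydroxyacyl-CoA dehydrogenase of shorter chains, averaged 48.2 ± 4.36 CPM in ELAPOR1 cells and 40.8 ± 0.730 CPM in vector cells and rose by 0.24 (adjusted p = 0.00469). Without ELAPOR1 replicate 3 the adjusted p was 0.119 for HADH and 0.0846 for HADHA, and HADHA was also lost without ELAPOR1 replicate 1 (0.0948) or vector replicate 3 (0.141). ECHS1, the short-chain enoyl-CoA hydratase, had 87.2, 84.5 and 86.7 CPM in ELAPOR1 libraries, against 91.5, 101 and 98.3 CPM in vector libraries. It fell by 0.17 on the log2 scale (adjusted p = 0.00589), and by 0.14 with an adjusted p of 0.0610 without vector replicate 2. The isomerases ECI1 and ECI2, at 0.07 and -0.01, did not pass, and neither did the mitochondrial thiolase ACAA2, at 0.13 (adjusted p = 0.119).

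Of the peroxisomal members, ACOX3, an oxidase of branched chains, had 10.1, 12.01 and 10.1 CPM in ELAPOR1 libraries, against 7.25, 8.96 and 9.10 CPM in vector libraries. It rose by 0.35 ± 0.134 with an adjusted p of 0.0471, and 11 of 16 alternatives lost that call, including the removal of any library but vector replicate 3. The peroxisomal thiolase ACAA1 averaged 53.2 ± 1.92 CPM in ELAPOR1 cells and 49.2 ± 1.96 CPM in vector cells, without overlap but with an adjusted p of 0.188. Summed over roles, oxidation genes gave 309 ± 2.81 FPKM in ELAPOR1 cells and 304 ± 2.45 FPKM in vector cells, and synthesis genes 109 ± 1.92 FPKM in ELAPOR1 cells and 106 ± 1.21 FPKM in vector cells. Desaturation genes summed to 147 ± 2.05 and elongation genes to 143 ± 0.443 FPKM in ELAPOR1 cells, against 142 ± 2.34 and 149 ± 1.82 FPKM in vector cells. These sums carry the same scaling limit, as ELAPOR1 itself took 2.06% to 2.12% of the raw counts in ELAPOR1 libraries. Side by side, the share called was 40% for synthesis, 40% for desaturation, 28.6% for elongation, 50% for activation and 35.7% for oxidation, over 4 to 14 tested genes each. It was 21.4% over all tested genes and 27.0% over those averaging 5 CPM or more, and elongation lay near the latter. With so few genes a role the shares cannot be ranked.

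PPARG, the PPAR of fat cells that colon epithelium also expresses, had 41.5, 38.5 and 46.1 CPM in ELAPOR1 libraries, against 39.2, 36.7 and 34.6 CPM in vector libraries. The groups overlapped. Its log2 fold change of 0.19 ± 0.0712 passed only just, at an adjusted p of 0.0495, and 11 of 16 alternatives lost the call, including removal of ELAPOR1 replicate 1 or 3 or of vector replicate 2 or 3. PPARA, which drives hepatic fatty acid oxidation, averaged 6.86 ± 0.791 CPM in ELAPOR1 cells and 7.49 ± 0.945 CPM in vector cells, and PPARD 13.5 ± 1.21 and 15.0 ± 1.89 CPM. Neither passed, at adjusted p of 0.662 and 0.407.

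The 5 members left untested were ELOVL2 and ELOVL4, elongases of very long chains, the brain-type ACSL6 and CPT1C, and ACADL, the long-chain acyl-CoA dehydrogenase. None had more than 9 counts in a library. ELOVL4 had 0 counts in all 6 libraries, which allows up to 0.0559 CPM over the ELAPOR1 group and 0.0532 CPM over the vector group, for 3 counts of each group's total and for counting error only.

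Companion genes of the pathway, 83 that are no members, were counted in the same way. Of 75 tested, 15 rose and 9 fell, 32% in all, against 21.4% of all tested genes and 27.0% of those averaging 5 CPM or more. Unlike the tested members, the companions did not all reach that level, and PDK4, for example, averaged 1.73 CPM over all libraries. Among 17 regulators 5 rose and 3 fell, 47.1% of them, against the same 21.4% and 27.0%. RXRA, the partner of the PPARs on DNA, averaged 47.5 ± 1.68 CPM in ELAPOR1 cells and 38.3 ± 2.22 CPM in vector cells (log2 fold change 0.31, adjusted p = 0.000243), and the coactivator PPARGC1B had 10.3, 9.66 and 11.3 CPM in ELAPOR1 libraries against 8.12, 7.50 and 8.37 CPM in vector libraries (0.38, adjusted p = 0.0305, lost without ELAPOR1 replicate 1 or 3 or without vector replicate 1 or 2). INSIG1, which holds the SREBP precursors in the endoplasmic reticulum, fell by 0.29 (adjusted p = 0.0107), and was not called without ELAPOR1 replicate 3 or without vector replicate 1. SREBF1, the main SREBP of fatty acid synthesis, and SREBF2, the main SREBP of cholesterol synthesis, had close estimates. The log2 fold changes were 0.14 ± 0.0535 for SREBF1 (adjusted p = 0.0507) and 0.16 ± 0.0392 for SREBF2 (adjusted p = 0.00148), and only SREBF2 passed. Of 10 tested synthesis companions 2 rose and 0 fell, 20% of them, against 21.4% of all tested genes in either direction and 10.0% higher. The risers were ME1, a source of NADPH, by 0.32, and MID1IP1, an activator of acetyl-CoA carboxylase, by 0.19.

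Among 29 tested oxidation companions 6 rose and 2 fell, 27.6% of them, against 21.4% of all tested genes. The share was near the 27.0% of genes averaging 5 CPM or more, a level that not all of these companions reached. HSD17B4, the multifunctional enzyme of peroxisomal oxidation, stood out with 148, 146 and 150.4 CPM in ELAPOR1 libraries, against 79.9, 80.6 and 73.3 CPM in vector libraries. It rose by 89.8%, or 0.92 ± 0.0448 on the log2 scale (adjusted p = 2.10e-28). EHHADH, the other bifunctional enzyme of peroxisomes, rose by 0.45 (adjusted p = 0.000333). PDK4, which restrains pyruvate dehydrogenase, had 2.34, 2.66 and 2.47 CPM in ELAPOR1 libraries, against 1.17, 0.823 and 0.910 CPM in vector libraries, and rose by 1.36 ± 0.347 (adjusted p = 0.00211), a call lost with limma on log2(FPKM + 1), at 0.35 with an adjusted p of 0.0755, and on log2(FPKM + 0.1), at 1.04 with an adjusted p of 0.114. Not every peroxisomal gene moved up: PECR, a peroxisomal enoyl-CoA reductase, fell by 0.37 (adjusted p = 0.00304).

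**Figure D4:**
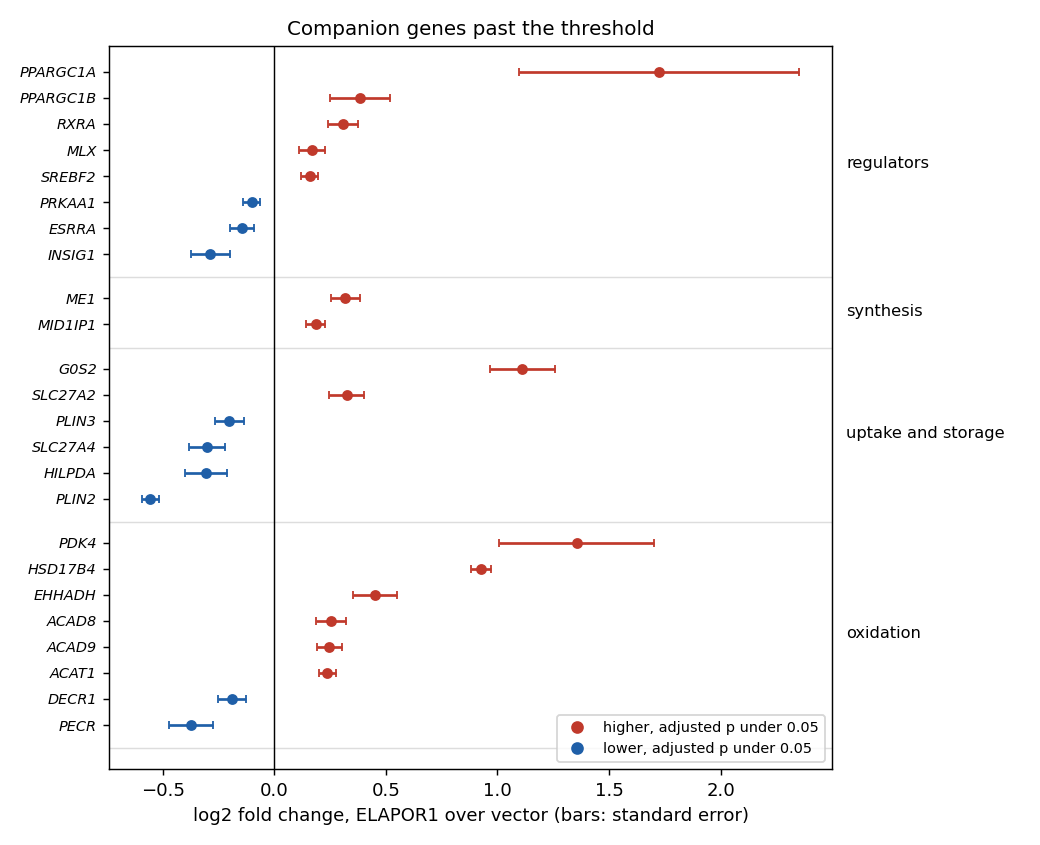
Log2 fold change (x axis, ELAPOR1 over vector) with standard errors of the 24 companion genes past the threshold, by role; red is higher and blue lower in ELAPOR1 cells. HSD17B4 at 0.92 and G0S2 at 1.11 rose most among genes above 5 CPM, and PLIN2 fell most, at -0.56.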

How the data were processed

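Poly(A) RNA from 6 SW620 libraries, 3 per group, was sequenced after oligo(dT) selection of 1 ug of total RNA. The authors deposited read counts per gene, not normalized, and the submitters' processing notes list GRCh38, DESeq2, HTSeq 0.6.1, HISAT2 2.0.1 and cutadapt 1.9.1. FPKM values deposited by the authors equal count over exonic length and library total within 0.01 for 142222 of 142222 nonzero counts. Column K was read as ELAPOR1 (older symbol KIAA1324) and NC as vector. The authors' deposited table of log2 fold changes and p-values, read as ELAPOR1 over vector, called 12 members, all among the 14 called here; ACOX3 and PPARG were missed there.

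The test on the counts was edgeR's two-sided quasi-likelihood test (version 4.0.16, R 4.3.3) after filterByExpr, which kept 16003 of 60605 genes, and TMM scaling. SE was taken as |log2 fold change| divided by the root of the F statistic. Intervals use the normal approximation. Members and lists were chosen with earlier results of these data known. Values per library are given for called members changed by at least 0.4, ACLY, ACACA, FASN, SCD, CPT1A and the largest called change per role. Further members, their values and SREBF1, SREBF2, PECR, PLIN3, HILPDA, SLC27A4, DGAT1, DGAT2, LPIN1, GPAM and AGPAT2 were named after their values were seen. Of companions, the 3 largest called changes per list with at least 1 CPM are named. Alternatives used DESeq2 1.42.0 and limma 3.58.1 on log2(FPKM + 1) or log2(FPKM + 0.1). The code was tested on simulated data. Pairs of libraries within a group had a mean chi-square per gene from 2.43 to 3.62, above 1 expected from sampling, so none was merged. GENCODE 29 gave exon overlaps; it lists all 43 members but only 17 with the coordinates of the deposited table, so shared-exon lengths come from a differing annotation. RefSeq gave the start windows, and 1 further planned motif and 1 added motif are not reported here. Protein sequences were not used here.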

Additional observations from a re-analysis of the deposited data

How the results depend on the processing

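The 10 higher members became 6 with library sizes alone, 5 with no filter, 6 with DESeq2, 4 in the limma fit of log2(FPKM + 1), 4 in that of log2(FPKM + 0.1) and 5 at an adjusted p under 0.01. The last follows from the stricter threshold; for the others the cause was not tested. Synthesis members called, 2, became 1 with no filter, 1 with DESeq2 and 1 with either limma fit. Desaturation members called, 2, became 1 with limma on log2(FPKM + 1). Elongation members called, 2, became 1 with library sizes alone, no filter, DESeq2 and either limma fit. Oxidation members called, 5, became 3 with library sizes alone, 3 with no filter, and 2 with either limma fit. For PPAR genes, 1 became 0 under library sizes alone, no filter, DESeq2 with either trend, both limma fits and the replicate block. The count of all genes called, 3427, became 2133 in the limma fit of log2(FPKM + 1) and 2098 in that of log2(FPKM + 0.1). Leaving out 1 library gave 5 to 9 higher and 2 to 4 lower members, and called 1 to 2 synthesis, 1 to 3 desaturation, 1 to 2 elongation, 2 to 2 activation, 2 to 5 oxidation and 0 to 1 PPAR genes, 18 to 23 companions and 2723 to 3187 genes in all. Of 14 called members, 6 kept the call under all alternatives, 8 lost it under at least 1, and 0 changed direction; of 24 others, 2 passed under at least 1. With the replicate block 9 members were higher and 4 lower and 3361 genes were called in all. Deviations of same-numbered libraries correlated between -0.0345 and -0.0209, and of 6 libraries 0 were closest to their namesake, so the numbers were not taken as pairs. The 5 untested members had too few counts for a test, and whether they are absent or below this depth was not tested.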

Other observations

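Lipid uptake and storage genes formed another companion list. Of 21 genes 19 were tested, 2 rose and 4 fell in ELAPOR1 cells, 31.6% of them, against 21.4% of all tested genes and 27.0% of those averaging 5 CPM or more. Not all of the 19 reached that level. PLIN2, the coat protein of lipid droplets, had 205, 198 and 210.1 CPM in ELAPOR1 libraries, against 302, 282 and 318 CPM in vector libraries, and fell by 0.56 ± 0.0364 on the log2 scale (adjusted p = 2.82e-21 by edgeR). PLIN3, a related coat protein, and HILPDA, a droplet protein induced by hypoxia, fell by 0.20 and 0.30. G0S2, an inhibitor of the triglyceride lipase of droplets, had 12.8, 10.8 and 11.6 CPM in ELAPOR1 libraries, against 6.18, 5.37 and 4.61 CPM in vector libraries, and rose by 1.11 ± 0.145 (adjusted p = 3.47e-09). The groups did not overlap in either gene. The transport proteins with acyl-CoA synthetase activity did not move together: SLC27A2 rose by 0.32 (adjusted p = 0.000989) and SLC27A4 fell by 0.30 (adjusted p = 0.00346). Of the synthesis enzymes of triglycerides, DGAT1 and DGAT2 differed by 0.35 and 0.32 on the log2 scale (adjusted p = 0.119 and 0.0505). Others of this synthesis in the list did not share 1 direction. LPIN1 differed by 0.29, GPAM by -0.14 and AGPAT2 by -0.10 (adjusted p = 0.180, 0.185 and 0.205), and none of these enzymes passed.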
